A study of Mus with 5 samples.

Results

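In activated mouse CD8 T cells, 467 RARα peaks were called after 1 h with retinoic acid (RA) at places where the control list had no RARα peak within 5 kb. These RA-only peaks were chosen by the presence of a peak in 1 list and its absence from the other. They are 467 of the 565 RARα peaks called with RA on chromosomes 1 to 19, X and Y (82.7%), and of 27480 peaks in the 4 lists of the series. They were shallow peaks, mostly far from BATF peaks and more often outside genes than the other RARα peaks, and 219 of them lay at annotated repeats.

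RARα is a nuclear receptor that binds DNA as a heterodimer with RXR at retinoic acid response elements and changes its coregulators when RA binds. BATF is an AP-1 family transcription factor that pairs with JUN proteins and IRF4 and opens chromatin in effector T cells. A ChIP-seq peak is a place where fragments recovered with an antibody pile up above an IgG control, and it does not by itself show direct contact with DNA.

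The cells were WT primary CD8 T cells from mouse spleen, labelled as naive, that were activated with anti-CD3 and anti-CD28 for 24 h and rested for 24 h. For the last 1 h they received 50 nM RA or none (control), and chromatin was precipitated with anti-RARα, anti-BATF or normal rabbit IgG to ask where the receptor and BATF bind with and without its ligand. The methods give IL-2 (100 U/ml) for the culture, whereas the sample labels name a different interleukin for each ChIP sample. For each antibody and condition 1 peak list was called on 2 pooled alignment files against 1 IgG file that all 4 lists shared. The labels do not say whether the IgG cells received RA, nor whether the pooled files come from separate cultures. No spread between replicates can therefore be given, and a peak missing from the control list cannot be told apart from one that stayed just under its cutoff. Intervals on shares of peaks are 95% intervals (Wilson for a share, Newcombe for a difference) that cover counting error only, since peaks of 1 pool are not replicates.

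The RARα pools held 22475060 fragments with RA and 22655611 without, and the IgG file held 11410673. The peak numbers of the RA list run to 727, of which 130 (17.9%) do not appear in the list used here, and 121 of 1293 numbers (9.36%) do not appear for the control. Of the RA-only peaks, 67 lay between neighbouring control peaks where numbers are skipped, and the other 400 did not. What removed these numbers is not given in the sources used here, so for the 67 a removed control peak nearby cannot be told apart from the lack of one.

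The fragments at the summit (the pileup) were few. The median pileup of RA-only peaks was 11 fragments (quartiles 10 and 12, lowest 9, highest 34). A pileup of 9 was seen at 80 peaks, of 10 at 128, of 11 at 126 and of 12 at 73, so that 407 (87.2%) had at most 12. Only 16 had 16 or more. The other 98 RA peaks, each at most 5 kb from a control peak (shared RA peaks), had a median of 19.5 fragments. The 1049 control peaks without an RA peak at that distance (control-only peaks) had a median of 13. These values come from the calls that chose the peaks and are given as a description.

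**Figure D1:**
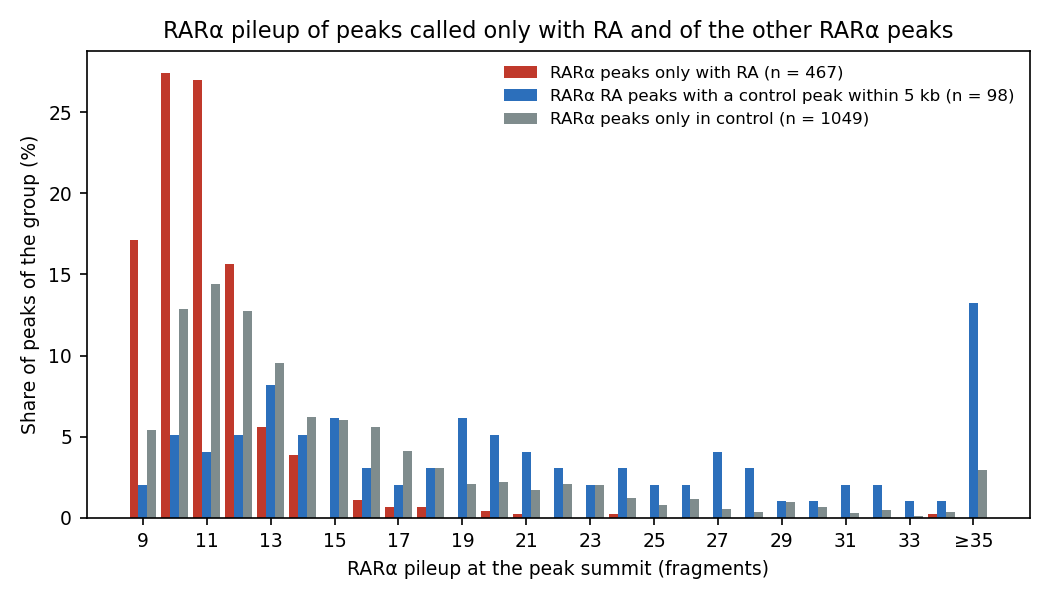
Share of peaks (%) at each RARα pileup (fragments at the summit) for the 467 RA-only peaks, the 98 shared RA peaks and the 1049 control-only peaks; the last position holds all peaks with 35 fragments or more. RA-only peaks crowd between 9 and 12 fragments (87.2%), whereas 16.3% of the shared RA peaks and 45.5% of the control-only peaks lie there.

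Most RA-only peaks lay where the IgG control was at or just above its floor. The IgG level, in fragments scaled to the RARα library, was at or just above its lowest value of 2.95 at 396 peaks (84.8%). It was higher at 71 (15.2%, interval 12.2 to 18.7). By the same limit it was higher at 64.3% of the shared RA peaks and at 50.8% of the control-only peaks. The control list has a lower floor of 2.88, so the share of control-only peaks above their own floor is larger than this. At this floor a peak needed 9 fragments to pass the p-value cutoff of 0.001, in the RA list as in the control list. Exactly the smallest pileup that could be called at their own IgG level was reached by 106 RA-only peaks (22.7%), and 360 (77.1%) had at most 2 fragments more.

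The fold enrichment, the pileup plus 1 over the IgG level plus 1, had a median of 2.78 (lowest 2.36, highest 6.32), and 6 RA-only peaks had a fold of 4 or more. Their median -log10 p was 3.63 (lowest 3.01, highest 14.7). The stricter limit of 1e-05 was met by 46 of them (9.85%, interval 7.47 to 12.9), against 21.2% of all 565 RARα RA peaks. A q-value of at most 0.05 was given to 18 (3.85%), against 13.5% of all 565, and 359 (76.9%) had a q-value of 1. Their median length was 300 bp, where 249 bp was the shortest peak that the caller reported in this list.

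**Figure D2:**
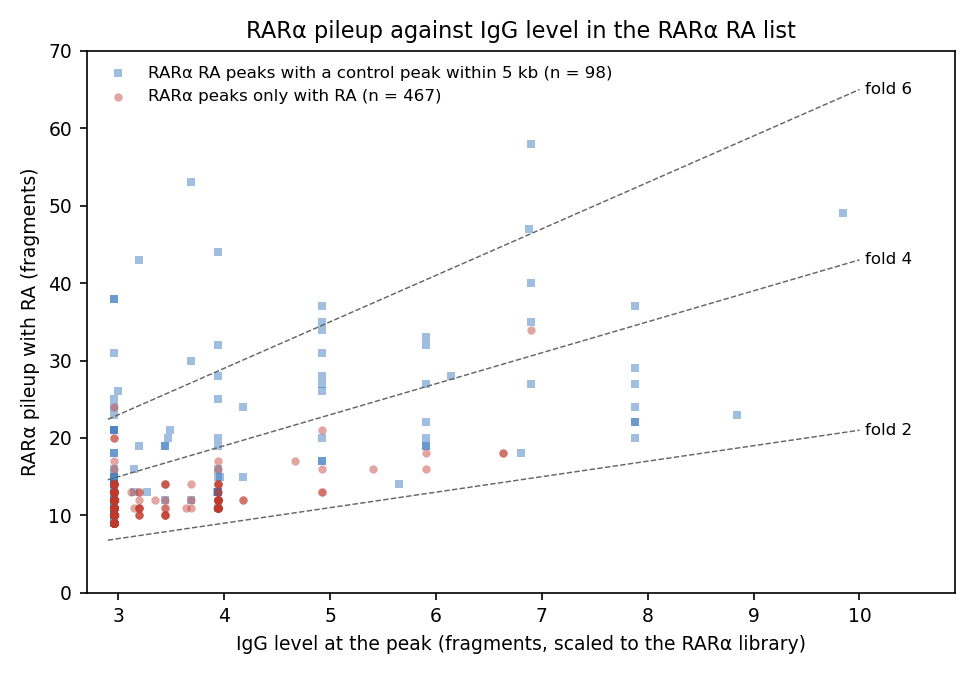
RARα pileup with RA (fragments) against the IgG level at the peak (fragments scaled to the RARα library) for the 467 RA-only and 98 shared RA peaks; dashed lines mark fold enrichments of 2, 4 and 6. RA-only peaks stack at the lowest IgG level of 2.95, and 6 of them reach a fold of 4.

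The distance that defines the group was large for most peaks. The gap from an RA-only peak to the nearest RARα control peak had a median of 930767 bp, and 445 of them lay more than 50 kb from any. The nearest outside the limit was a peak on chromosome 5 (chr5:32726518-32726924, mm10) between Pisd, Prr14l and Yes1, with 14 fragments and a fold of 3.79, at 6573 bp from a control peak. Next came the promoter peaks of Fam65b (chr13:24614482-24614876, 10 fragments) at 9478 bp and of Irf2bp2 (chr8:126594231-126594483, 12 fragments) at 9555 bp. The shared RA peaks nearest to the limit from inside both lay on chromosome 13, at 4554 bp (chr13:66739159-66739412, 14 fragments) and at 3523 bp (chr13:66297560-66297953, 18 fragments). At the p-value cutoff, the weakest member peaks had 9 fragments and a -log10 p of 3.01, among them 1 peak 1945 bp from Zmiz2 (chr11:6386537-6386854).

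The member peak of highest fold lay on chromosome 2 (chr2:113903068-113903425), in intergenic DNA annotated as an MLT1B long terminal repeat, and had 24 fragments, a fold of 6.32 and a -log10 p of 14.7. The annotation assigned it to Scg5, a chaperone of the secretory pathway, and to Arhgap11a. The next lay on chromosome 19 (chr19:44461519-44461810), 31662 bp from Wnt8b, with 20 fragments and a fold of 5.31. It was also assigned to Scd1, a desaturase that makes monounsaturated fatty acids, and to Sec31b and Ndufb8.

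A peak inside Deptor, an inhibitor of mTOR, had the same values, 20 fragments and a fold of 5.31, and fell within an L1Md_T element (chr15:55160622-55160966). The peak with the most fragments of the group lay in intron 1 of H2-Eb2 (chr17:34329789-34330241), an MHC class II gene. It had 34 fragments over a raised IgG level of 6.89, a fold of 4.43 and a -log10 p of 13.6, and the nearest RARα control peak was 165391 bp away. The other members with a fold above 4 were 17 fragments in an L1Md_A element on chromosome 2 (chr2:13616968-13617314, fold 4.55), assigned to St8sia6, Trdmt1 and Vim, and 16 fragments in an MTA_Mm-int element on chromosome 7 (chr7:27015351-27015707, fold 4.30), assigned to Cyp2a22 and Cyp2a12. Of these 6 members of highest fold, 4 carried a repeat name, as did 46.9% of all RA-only peaks. None lay within 5 kb of a BATF RA peak, where 5.14% of all RA-only peaks did. With 6 peaks, neither count can be told apart from the share of the whole group.

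A fold of 3.79, with 14 fragments at the lowest IgG level, was the next value down. It was shared by several peaks, among them one 53635 bp from Daam1, a formin, in an L1Md_F2 element (chr12:71776974-71777315), and one in an intron of Dip2c in an RSINE1 element (chr13:9518959-9519218). By p-value the 10 strongest also held a peak assigned to the transcript 4930572O13Rik (chr14:25184930-25185276), with 21 fragments and a fold of 3.71 over an IgG level of 4.92, and a peak with 17 fragments in a simple repeat on chromosome 6 (chr6:140241174-140241480, fold 3.64).

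RA-only peaks lay outside genes more often than the other RARα peaks. The authors' annotation classed 291 as intergenic (62.3%, interval 57.8 to 66.6, against 58.9% of all 565 RA peaks), 149 as intronic (31.9%), 24 as promoter (5.14%, interval 3.48 to 7.53, against 7.96% of all) and 3 as exonic. The intergenic share was 19.5 percentage points above that of shared RA peaks (interval 8.60 to 29.7) and 18.7 points above that of control-only peaks (13.3 to 24.0). The promoter share was below the 21.4% of shared RA peaks (difference -16.3 points, -25.6 to -8.93) and below the 19.4% of control-only peaks (-14.3 points, -17.3 to -11.0). The intronic share did not differ detectably from either group (differences -2.79 points, -13.4 to 6.93, and -2.32 points, -7.32 to 2.87).

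The distances to genes gave the same order. No protein-coding gene lay within 100 kb of 171 RA-only peaks (36.6%, against 31.5% of all 565 RA peaks), which was the case for 7.14% of shared RA peaks and 12.7% of control-only peaks. The differences were 29.5 points (21.4 to 35.2) and 23.9 points (19.2 to 28.8). The median gap to the nearest protein-coding gene was 13383 bp. Inside a protein-coding gene lay 172 RA-only peaks (36.8%), 57.1% of shared RA peaks and 52.9% of control-only peaks.

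The host genes of RA-only peaks were long, with a median length of 203 kb against 52.9 kb for shared RA peaks and 78.3 kb for control-only peaks. Genes longer than 1000 kb held 20 RA-only peaks (4.28%), no shared RA peak and 10 control-only peaks (0.953%, difference 3.33 points, 1.64 to 5.61). Among these peaks were one in Dmd, the dystrophin gene, with 12 fragments (chrX:84832027-84832386), and those in Lingo2, of 10 and 13 fragments (chr4:36466870-36467162 and chr4:36894567-36894825). Ptprd, a receptor tyrosine phosphatase, also held 2 RA-only peaks, each with 9 fragments (chr4:76205350-76205615 and chr4:77182099-77182378). Longer genes offer more sequence in which a peak can lie. The share of gene sequence in such long genes was not computed, nor was the share over all 565 RA peaks. No preference for long genes is therefore read from these values. The annotation named olfactory receptor genes at 14 RA-only peaks (3.00%, against 2.65% of all 565 RA peaks) and at 1.81% of control-only peaks, a difference that was not detectable (1.19 points, -0.379 to 3.26).

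An annotated repeat lay at 219 RA-only peaks (46.9%, interval 42.4 to 51.4, against 42.8% of all 565). The share was 23.5% for shared RA peaks (difference 23.4 points, 13.1 to 32.0) and 22.1% for control-only peaks (24.8 points, 19.6 to 29.9). With only intergenic and intronic peaks counted, the shares were 49.1%, 27.6% and 26.5% in the same order. The higher share was therefore also seen where promoters, which seldom carry repeat names, were left out.

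Most of the difference from the other RARα peaks was in LINE elements, retrotransposons without long terminal repeats. The share of the genome in repeats or LINEs was not computed, so no enrichment at them is read from these values. LINEs lay at 106 RA-only peaks (22.7%, interval 19.1 to 26.7, against 19.6% of all 565), and all 106 were of the L1 family. Shared RA peaks had 5 (5.10%, difference 17.6 points, 10.4 to 22.5) and control-only peaks 78 (7.44%, difference 15.3 points, 11.3 to 19.5). Elements named L1Md, a group that includes the youngest mouse L1 copies, lay at 43 RA-only peaks (9.21%). Shared RA peaks had 2 (2.04%, difference 7.17 points, 1.57 to 10.5) and control-only peaks 16 (1.53%, difference 7.68 points, 5.20 to 10.7). L1Md_T was the most frequent name with 17 peaks, of which 5 met the limit of 1e-05, followed by L1Md_A with 12 and L1Md_F2 with 9. Reads from such near-identical copies can be placed at the wrong copy, so their exact positions are uncertain, and the part of read placement in these values was not tested.

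Long terminal repeats lay at 60 RA-only peaks (12.8%), 6.94 points above control-only peaks (3.77 to 10.5), whereas the difference from shared RA peaks was not detectable (3.66 points, -4.18 to 9.09). Among them were 26 peaks at ERVK and 19 at ERVL-MaLR elements. SINEs lay at 34 RA-only peaks (7.28%), and neither difference was detectable (2.18 points, -4.43 to 6.16, and 1.47 points, -1.10 to 4.46).

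**Figure D3:**
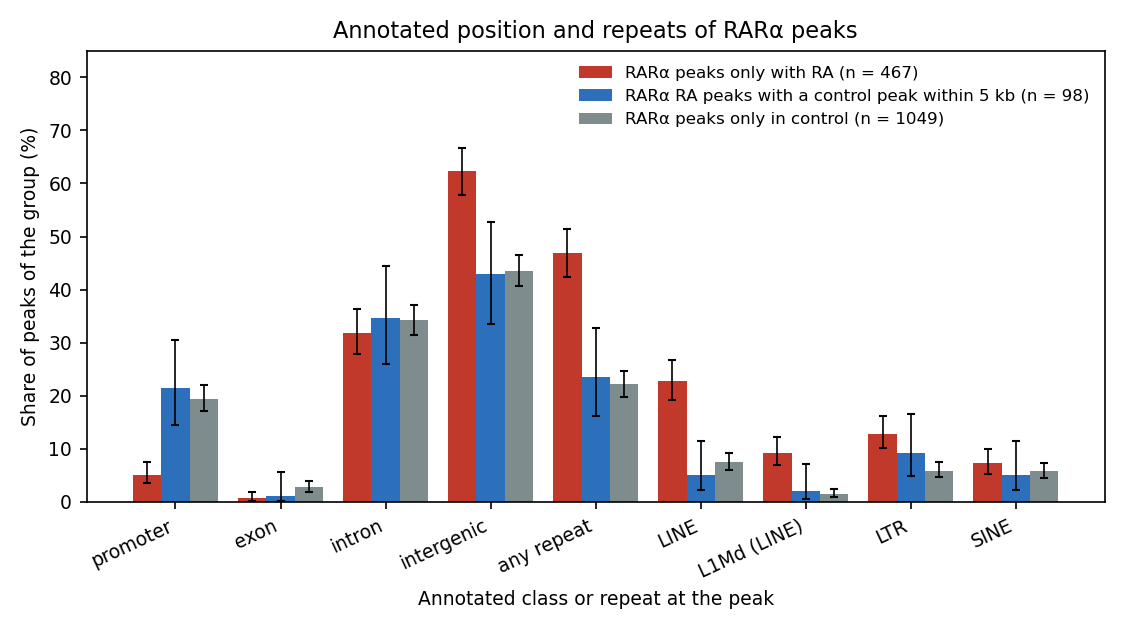
Share of peaks (%) in each annotated class and at each kind of repeat for the 467 RA-only, 98 shared RA and 1049 control-only RARα peaks, with Wilson 95% intervals as error bars. The RA-only bars are higher for intergenic DNA (62.3%), any repeat (46.9%) and LINEs (22.7%) and lower for promoters (5.14%).

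Co-binding with BATF was rare. In the RA condition BATF was called within 5 kb of 24 RA-only peaks (5.14%, interval 3.48 to 7.53, against 15.9% of all 565 RA peaks) and overlapped 15 of them. With 20 kb allowed the share was 10.3%. The shared RA peaks had BATF RA peaks nearby in 67.3% of cases (difference of RA-only from shared -62.2 points, -70.8 to -52.1). Control-only peaks had BATF control peaks nearby in 61.7% of cases (difference of RA-only from control-only -56.5 points, -59.9 to -52.7). With the BATF RA list for both groups, the control-only share was 52.7% (difference -47.6 points, -51.0 to -43.7). The BATF pool with RA held 16424269 fragments and that without RA 23110180, so the BATF lists differ in depth as well as in condition.

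The use of the longer BATF control list gave a like share. Within 5 kb of a peak of that list lay 32 RA-only peaks (6.85%, interval 4.90 to 9.51, against 17.2% of all 565). All 24 with a BATF RA peak were among these, 8 had a BATF control peak only, and none had a BATF RA peak only. The median gap from an RA-only peak to the nearest BATF RA peak was 371728 bp.

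**Figure D4:**
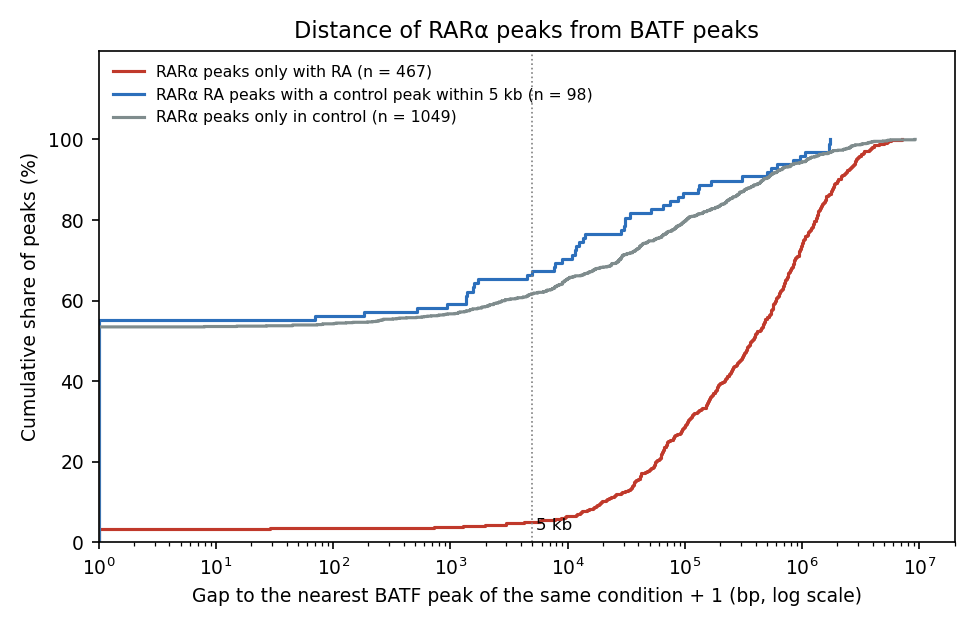
Cumulative share of peaks (%) by the gap to the nearest BATF peak of the same condition plus 1 (bp, log axis) for RA-only, shared RA and control-only RARα peaks; the dotted line marks 5 kb. At 5 kb the curves stand at 5.14%, 67.3% and 61.7%.

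Promoters were the exception within the group. Of the 24 RA-only peaks at promoters, 13 (54.2%, interval 35.1 to 72.1) lay within 5 kb of a BATF RA peak and 16 (66.7%) of a BATF control peak. The numbers near BATF RA peaks were 6 of 291 intergenic peaks (2.06%), 4 of 149 intronic peaks (2.68%) and 1 of 3 exonic peaks. For promoter peaks of the other groups the shares near BATF of the same condition were 85.7% (shared RA) and 90.2% (control-only). Outside promoters and exons the shares were 2.27% for RA-only, 63.2% for shared RA and 54.7% for control-only peaks, so the low share was also seen where promoters were left out.

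At the promoter of Snai1, a zinc finger repressor, the RARα peak with RA (chr2:167537812-167538079) had 13 fragments and a fold of 3.54. The BATF peaks that it overlapped had folds of 8.26 with RA and 8.95 in the control. The peak at the shared promoter of Fen1, a flap endonuclease of DNA replication, and Tmem258 (chr19:10204287-10204589) had 12 fragments and a fold of 3.29, and the BATF peaks over it had folds of 8.55 with RA and 12.3 in the control. At the promoter of Maml3, a Notch coactivator, the RARα peak (chr3:52102755-52103014) had the same 12 fragments and fold of 3.29, with BATF folds of 7.27 and 8.19. BATF was called at these promoters in both conditions, so the RARα calls, and not the BATF calls, differed between the lists there.

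Ddx17, an RNA helicase, had a promoter peak (chr15:79544517-79544929) with 12 fragments that lay 726 bp from a BATF RA peak. The peaks at the promoters of Appbp2 and D630032N06Rik (chr11:85234415-85234673) and of Slc35e3 (chr10:117746374-117746696) each had 11 fragments and a fold of 3.03 and overlapped a BATF RA peak. In an intron of Cers6, a ceramide synthase, the peak (chr2:68907491-68907895, 11 fragments) lay 11 bp from one. The peak of highest fold near BATF was the intergenic one at 4930572O13Rik, 4204 bp from a BATF RA peak with 48 fragments and a fold of 8.12. Of the 3 members nearest to the 5 kb limit, the Fam65b and Irf2bp2 promoter peaks overlapped BATF peaks in both conditions, with BATF RA folds of 6.61 and 8.17. The nearest, at Pisd, lay 58403 bp from a BATF RA peak.

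The BATF peaks near the members were of usual strength. The 24 BATF RA peaks had a median fold of 5.94 (lowest 3.60, highest 9.54), set beside 6.05 near shared RA peaks and 5.29 over the whole BATF RA list. The 32 BATF control peaks had a median fold of 6.32, and the whole BATF control list had 5.40.

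Peak strength differs between the groups, so the shares were also set side by side within ranges of RARα pileup. The share of RA-only peaks near BATF RA peaks was 4.33% at 9 to 10 fragments, 4.52% at 11 to 12, 4.55% at 13 to 15 and 25% (4 of 16) at 16 or more. For control-only peaks of the same ranges and the BATF control list it was 24.0%, 49.5%, 72.8% and 85.5%. With the shorter BATF RA list used for the members, control-only peaks gave 21.4%, 37.2%, 65.8% and 74.4%. Shared RA peaks gave 85.7% (6 of 7), 55.6% (5 of 9), 52.6% (10 of 19) and 71.4% (45 of 63). RA-only peaks were the lowest in every range, and the difference from control-only peaks was smallest at 9 to 10 fragments (-19.6 points, -26.5 to -13.0). With the BATF RA list for both groups it was -17.0 points there (-23.7 to -10.6).

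For repeats, the size of the difference varied between the ranges. At 9 to 10 fragments 40.9% of RA-only and 34.9% of control-only peaks lay at a repeat, a difference that was not detectable (5.97 points, -3.54 to 15.3). At 11 to 12 fragments the shares were 50.3% and 25.6% (24.6 points, 15.9 to 33.0), and at 13 to 15 they were 63.6% and 17.5% (46.1 points, 30.3 to 59.4). Among the 16 strongest RA-only peaks it was 37.5%, beside 15.1% (22.4 points, 2.91 to 46.5). Against shared RA peaks, which are few in each range, only the difference at 13 to 15 fragments was detectable (26.8 points, 0.198 to 48.5). Over all peaks with at most 12 fragments the repeat shares were 45.5% and 29.4% (16.1 points, 9.72 to 22.3), and the BATF shares 4.42% and 39.2% (-34.8 points, -39.5 to -29.8). The LINE difference from control-only peaks was not detectable at 9 to 10 fragments (1.16 points, -6.25 to 8.46) but was in the higher ranges. Intergenic and promoter differences from control-only peaks were detectable up to 15 fragments. At 16 or more they were not (13.7 points, -10.8 to 33.4, and -3.49 points, -13.4 to 20.3).

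**Figure D5:**
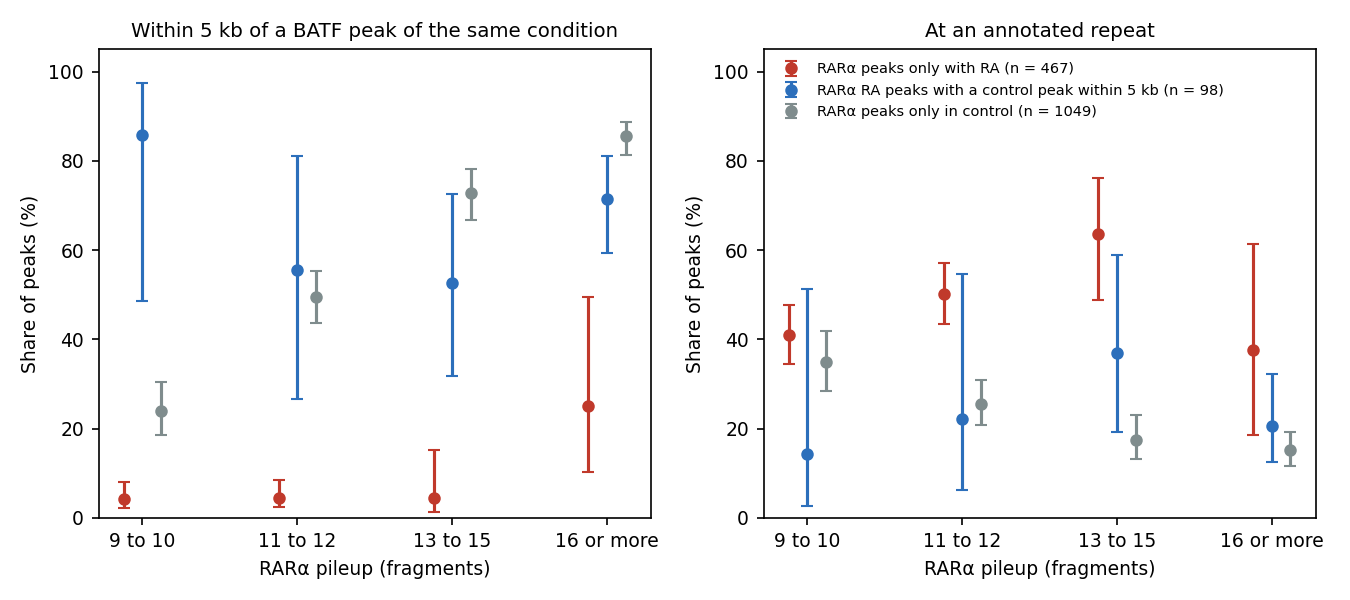
Share of peaks (%) near BATF, at most 5 kb from a peak of that condition (left), and at an annotated repeat (right) by RARα pileup (fragments) for RA-only, shared RA and control-only peaks, with Wilson 95% intervals. Near BATF, RA-only peaks stay under 5% up to 15 fragments and reach 25% at 16 or more, where control-only peaks go from 24.0% to 72.8% and then 85.5%. For repeats the RA-only and control-only intervals overlap at 9 to 10 and at 16 or more fragments.

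The annotation named 557 genes at RA-only peaks and none at 164 of the peaks (35.1%). It named several genes at 97 peaks, up to about 100 kb away, so an assigned gene is a neighbour and not a shown target. Among 21887 protein-coding genes, 499 (2.28%) were named at an RA-only peak and 240 (1.10%) lay within 10 kb of one. Of 146 genes in lists drawn up for T cells and retinoid signalling, 10 (6.85%) were named and 7 (4.79%) lay within 10 kb. The lists hold genes that the study itself picked from these data, and both shares rest on few genes, so nothing particular to the lists is read from them.

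Of 15 conventional RAR target genes, 2 were named. Rarb, which encodes RARβ and is itself a classic RA target, had a peak in an intron, in an L1Md_F2 element (chr14:16689754-16690038), with 9 fragments and a -log10 p of 3.01. This is the smallest pileup that could be called. Tgm2, a transglutaminase induced by RA in many cells, had an intergenic peak 13459 bp away (chr2:158159851-158160193) with 12 fragments and a fold of 3.29, where 7 genes were named. Of 20 retinoid receptor and metabolism genes, Rarb alone was named.

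Of 15 genes described as induced by RA in T cells, P2rx7 and Dtx4 were named. P2rx7, an ATP-gated ion channel, had a peak in an intron within a B4A element (chr5:122669165-122669557) with 14 fragments and a fold of 3.79, at 16201 bp from a RARα control peak and 37988 bp from a BATF peak of either list. Dtx4, an E3 ligase of the Notch pathway, had a peak with 10 fragments (chr19:12456281-12456636) at 9693 bp from the gene and 4134 bp from Mpeg1, which encodes perforin-2. Of the 15 genes, 11 had a shared RA peak and 14 had a control peak. The list holds genes, such as Lif, Gfi1 and Asb2, that the study showed for RARα binding in these data. The share of all genes with such peaks was not computed, so these counts are given as a description.

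Of 13 coregulators, Ncoa1, a steroid receptor coactivator, had a peak in intron 12 of 22 (chr12:4292182-4292471) with 12 fragments and a fold of 3.29. Crebbp, the acetyltransferase CBP, had one in an intron within a B1_Mur2 element (chr16:4141530-4141822) with 9 fragments. Neither peak lay within 50 kb of a BATF RA peak.

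Of 23 effector genes, Gzmb, which encodes granzyme B, was named once. The peak (chr14:56274637-56274916) had 12 fragments and a fold of 2.63 over an IgG level of 3.94, lay 12303 bp from Gzmb in an L1MC1 element, and was assigned to Gzmc, Gzmf and Atp12a as well. It was 756 bp from a BATF control peak and 9418 bp from the nearest BATF RA peak. Of the same 23 genes, 15 had a RARα control peak. The list holds genes that the study reported as bound by RARα in these data, so this count is given as a description.

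Of 13 memory genes, Satb1, a chromatin organiser of T cells, had a peak in intron 7 of 11 (chr17:51780387-51780690) with 11 fragments and a fold of 3.03. Of 14 AP-1 genes, Atf3 was named, at a peak 74328 bp away (chr1:191257661-191258066) with 13 fragments and a fold of 3.54. None of 10 inhibitory receptor genes, 14 T cell identity genes and 14 marker genes of other cell types was named at an RA-only peak. Of all protein-coding genes 2.28% were, and at that share few genes of lists this short would be named. A RARα control peak was named at 3, 9 and 3 of the listed genes. The control list is longer, with 1160 peaks on chromosomes against 467 members. Its share over all genes was not computed, so no difference is read from these counts. Of 45 genes listed here for the study's ChIP-seq work, 4 were named, which were Gzmb, P2rx7, Dtx4 and Deptor. Of these, P2rx7 and Deptor appear in the text of the study's ChIP-seq section, and Gzmb and Dtx4 do not.

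Among neighbouring RA-only peaks, 8 pairs lay closer than 50 kb. The number for a random spread or for the other groups was not computed. The smallest gap was 2107 bp, on chromosome 1, between peaks of 10 and 12 fragments with no gene named. Of 25 genes named at 2 or more RA-only peaks, many were neighbouring olfactory receptor genes named together. Egfr, a growth factor receptor, had peaks in introns 13 and 20 of 27 (chr11:16878705-16879160 with 12 fragments and chr11:16899720-16900034 with 10). Lasp1, an actin-binding protein, had one in intron 2 of 6 (chr11:97808605-97808859, 13 fragments), 1552 bp from a BATF control peak and 7778 bp from a BATF RA peak, and another 81770 bp away from the gene (chr11:97920535-97920832, 11 fragments).

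Across the 19 autosomes the density of RA-only peaks was lowest on chromosome 7, with 18 peaks or 0.124 per Mb, and highest on chromosome 3, with 42 or 0.263 per Mb. Chromosome 7 has 14.0 protein-coding genes per Mb and chromosome 3 has 6.15. Control-only peaks had densities of 0.482 and 0.313 per Mb on these chromosomes, in the opposite order. Over all 19 autosomes the Spearman correlation with protein-coding genes per Mb was -0.626 for RA-only and 0.496 for control-only density. Not every chromosome followed this order. Chromosome 11, with 13.2 genes per Mb, had 0.197 RA-only peaks per Mb, above the median of 0.184. Chromosome X held 2 RA-only and 8 control-only peaks.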

How the data were processed

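Peak lists of RARα and BATF ChIP-seq with and without RA were analysed (1 list per antibody and condition). The authors aligned paired-end reads with Bowtie2 and called peaks with MACS 2.2.7.1 on mm10 (GRCm38), pooling 2 files per list against 1 IgG file, at p-value cutoffs of 0.001 (RARα) and 1e-05 (BATF). Each deposited RARα pileup is a signal that gives the fragments at the summit. Pileups of the BATF control list are not whole numbers (lowest 12.84), so they are not counts of fragments. The deposited fold enrichment is a ratio to the IgG level with 1 added to both, from which the IgG level was recovered. The authors' p-values and q-values were deposited as −log10, and q-values are given although the headers say none were computed. Classes, gene names and repeat names are those of the authors' annotation, credited to HOMER in the submitters' notes, which names at most 1 repeat per peak.

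Gaps between peaks were measured edge to edge, and a gap of at most 5 kb counted as near, after the study's methods. Shares carry Wilson and their differences Newcombe 95% intervals. No test between conditions was possible with 1 pool each, and no chance level was computed. Gene positions came from a RefSeq table of GRCm38.p6, to which 555 of 557 names matched (99.6%, 23 of them through older symbols). Python 3.11.15 with numpy 2.4.6, pandas 2.3.3 and scipy 1.17.1 was used, and the gap and interval steps were tested on simulated data.

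The peaks and gene lists were chosen with earlier results of these data known. Genes were named at the 10 peaks of highest fold and the 10 of smallest p-value, at the 8 of highest fold near BATF RA peaks, where a listed gene or a gene of the study's ChIP-seq text had a peak, where a gene had 2 or more peaks, and nearest to the 5 kb limit or the p-value cutoff. Not all of these are printed. The long host gene Dmd was named after its values were seen. DNA sequences and motifs were not analysed here.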

Additional observations from a re-analysis of the deposited data

Results flagged for a closer look

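The RARα RA list also held 32 peaks on unplaced or unlocalised scaffolds, where the RARα control list held 12. They stand outside the 467 peaks described above, which were limited to chromosomes, and they drew attention because they lie in rows that no comparison used. No explanation was tested.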

How the results depend on the processing

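Alternatives gave 22 values, of which 14 stayed close to the reported value (inside its interval or, for a number of peaks or genes, a factor of 1.5), and 8 did not. All are values of the RA-only peaks alone, so the differences from the other groups were not checked in this way. Limits on peak strength moved most: a p-value of 1e-05 left 46 RA-only peaks and a q-value of 0.05 left 18. Among the 46 the intergenic share was 69.6% (interval 55.2 to 80.9) and the repeat share 63.0% (48.6 to 75.5). These wide intervals contain the reported intergenic share of 62.3% and overlap the interval of the reported repeat share, so no rise with peak strength is read from them. The share near BATF RA peaks was 3.21% with at least 1 bp of overlap and 10.3% with 20 kb. The median fold was 3.38 without the added constant, and 55.7% of RA-only peaks overlapped no RefSeq gene body of any kind, against 62.3% classed as intergenic. The number of RA-only peaks was 475 with overlap alone, 470 with 1 kb, 455 with 20 kb and 400 without those beside skipped control numbers. The alternatives of skipped numbers and of at most 12 fragments were chosen after seeing the data. Motif alternatives were not run, since no genome sequence was used. No paired analysis was possible because each condition has 1 list from pooled files. Depth limits the calls: at the IgG floor 9 fragments make a peak, and 360 RA-only peaks had at most 2 fragments above the smallest pileup that could be called.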
